A study of Homo sapiens with 14 samples.

Results

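Named long intergenic noncoding RNAs, the genes whose symbol is LINC followed by digits, were followed in H9 human pluripotent stem cells and in cultures derived from them on the way to midbrain dopamine neurons. A gene entered the set when it reached 1 CPM (CPM scales each count by all counts on gene entries of its library) in at least 2 of the 10 undifferentiated and day 11 libraries, and 87 of 454 such genes did so, out of 57445 gene entries. Members were thus chosen by CPM in the same libraries that the stage and dose comparisons use, so counts over the set that compare day 11 with stem cells are descriptions and support nothing. RNA-seq of total RNA gave 14 libraries, 2 for each of 7 groups, all from the established embryonic line H9 (WA-09). The differentiated groups were day 11 cultures at 4 concentrations (0.7, 3, 5 or 7.5 µM) of CHIR99021 (CHIR), a GSK3 inhibitor that activates WNT signalling, and cultures of the 7.5 µM protocol at day 16 and day 30; the last group was undifferentiated cells (hPSC). Per the labels every differentiated culture began with Sonic hedgehog protein, LDN and SB431542 (inhibitors of BMP and TGF-beta signalling), a ROCK inhibitor and 0.7 µM CHIR. The test concentrations ran from day 4, patterning factors were withdrawn at day 7, and from day 10 all arms shared a medium with BDNF, ascorbic acid, GDNF, TGFβ3, dibutyryl cAMP and 3 µM CHIR. Cells were replated at day 11 and again at day 16 in medium that added the Notch pathway inhibitor DAPT. All groups come from a single line, and whether replicates were separate cultures is not said, so a p-value here speaks of the spread among these libraries, which may be technical.

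Long intergenic noncoding RNAs are spliced, mostly polyadenylated transcripts that lie between protein-coding genes. Some act on genes nearby, some bind proteins or RNAs in the cytoplasm, some carry microRNAs in their introns or exons, and for many no role is known. Their levels tend to follow cell type more closely than those of coding genes, which is why several serve as markers of pluripotent, endodermal or neural cells. A LINC symbol is a provisional name: in the RefSeq gene table (GRCh38.p14) 86 of the 87 could be matched, 72 of them as long noncoding RNAs, 13 as protein-coding genes and 1 as a transcribed pseudogene. LINC00493 is now SMIM26, LINC00116 is MTLN and LINC00617 is TUNAR, for example, and in all 33 members carry another symbol today.

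The sequences at 2 loci are shown: LINC00261, near zero in hPSC and abundant at day 11, and LINC00511, highest at the lowest CHIR concentration. Both are among the 3 members with a match to the forkhead core given below. LINC00511 does not stand for the dose results as a whole, since its call at 7.5 against 0.7 µM was lost without either 0.7 µM library. The RefSeq promoter windows (250 bases before to 50 after the start, GRCh38.p14, minus strand for both) are chr20:22578593-22578892 for LINC00261 and chr17:72640423-72640722 for LINC00511. Capitals mark the forkhead core GTAAACA or its reverse complement TGTTTAC, searched on both strands.
LINC00261: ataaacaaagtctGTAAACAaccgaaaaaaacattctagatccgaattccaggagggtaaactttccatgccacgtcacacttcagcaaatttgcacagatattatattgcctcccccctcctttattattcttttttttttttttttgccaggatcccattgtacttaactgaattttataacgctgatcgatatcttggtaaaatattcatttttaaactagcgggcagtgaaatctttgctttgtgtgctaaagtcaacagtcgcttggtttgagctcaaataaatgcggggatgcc
LINC00511: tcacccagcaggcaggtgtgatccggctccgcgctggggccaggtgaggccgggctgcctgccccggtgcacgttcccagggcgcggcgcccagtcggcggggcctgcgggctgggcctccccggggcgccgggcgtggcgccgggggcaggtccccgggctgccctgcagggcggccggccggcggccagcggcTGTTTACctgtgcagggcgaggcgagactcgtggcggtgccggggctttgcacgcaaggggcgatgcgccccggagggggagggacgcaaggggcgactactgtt
Of the 87 members, 62 had a window in the table, with 72 windows in all. The forkhead core stood in 4.17% of these windows, against 3.42% of all 35116 windows of this length, in the members LINC00261, LINC00371 and LINC00511. The TCF/LEF core CTTTGAT (or ATCAAAG), which does not overlap the forkhead core, stood in 1.39% of them against 2.62% of all. A match is a description of letters, not a binding site.

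LINC00669, also named MIR924HG, is shown by its microRNAs because it was called in both the dose and the day 30 comparison. The mature sequences below are from RefSeq (GRCh38.p14, chromosome 18), and capitals mark the seed, bases 2 to 8.
hsa-miR-924: aGAGUCUUgugaugucuugc
hsa-miR-5583-5p: aAACUAAUauacccauauucug
hsa-miR-5583-3p: gAAUAUGGguauauuaguuugg
The 3 seeds differ. The counts are those of the long transcript, and the mature microRNAs themselves were not measured.

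Library facts that touch the members are these. The later libraries, day 16 and day 30, held 5.41 to 6.34 M gene counts each, and those of day 11 and hPSC 20.5 to 44.8 M. TMM scaling factors were 0.759 and 0.833 in replicate 1 at 3 and 5 µM, and 0.98 to 1.14 in the other day 11 and hPSC libraries. Of the floor plate markers, FOXA1 had 27.7 to 101.2 CPM at day 11 and 0.0399 to 0.124 CPM in hPSC, and LMX1A had 28.2 to 119.2 CPM at day 11 and 0.031 to 0.2 CPM in hPSC. The 6 pluripotency markers summed to 1363 to 2329 CPM at day 11, a sum that includes SOX2 and LIN28A of neural progenitors, and to 3845 to 4600 CPM in hPSC. The tables of the 2 later stages were made separately and are described at the end. In GENCODE 29, 26 of the 85 members it lists have an exon overlapping an exon of a gene on the other strand; the strand setting of the counting is not given, so reads of such pairs are uncertain.

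Across the 10 hPSC and day 11 libraries the set ran from abundant, steady RNAs to RNAs seen at 1 stage. In all 10 libraries 42 members stood at 1 CPM or more, 15 reached it in day 11 libraries alone, 13 in the hPSC libraries alone, and 17 had another pattern. Summed over the set, the members took 660.2 to 1316 CPM at day 11 and 1290 to 1305 CPM in hPSC. LINC00657 (NORAD), which binds PUMILIO proteins and guards genome stability, held much of that: its level was 179.7 to 593.4 CPM at day 11 and 438.6 to 473.6 CPM in hPSC. Levels between genes are compared per kilobase of exon: at day 11 LINC00657 had the highest mean of the 85 members with an exon length, at 72.5 ± 31.7 CPM per kilobase, followed by LINC00493 at 43.1 ± 16.8 and LINC00261 at 22.1 ± 11.2 (SD, n = 8), with ranges that overlap between neighbours in that order. In hPSC LINC00678 stood at 93.3 and 139 CPM per kilobase, LINC00657 at 82.2 and 88.7 and LINC00493 at 28.6 and 31.8, while LINC00261 was at 0.0144 and 0.0446.

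**Figure D1:**
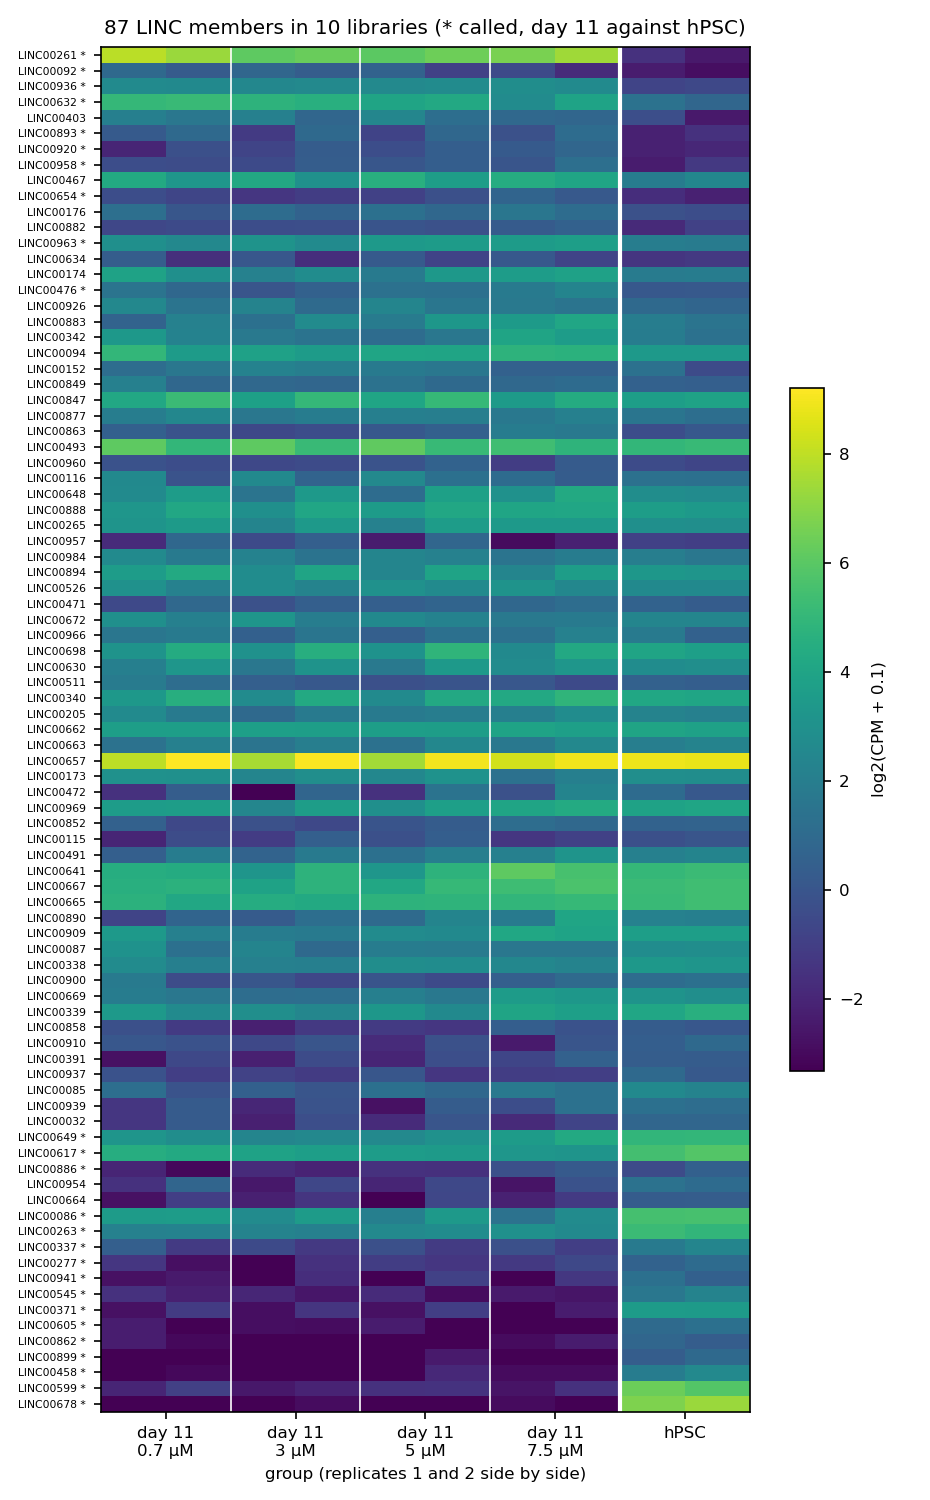
Level of each of the 87 members, as log2(CPM + 0.1) in colour, in the 8 day 11 and 2 hPSC libraries (columns), ordered by the fitted log2 change of day 11 against hPSC. LINC00261 tops the order and LINC00678 ends it; an asterisk marks the 26 members called in that comparison.

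The first question the design raises is which members differ between day 11 cultures and hPSC. The test was edgeR's quasi-likelihood test with Benjamini-Hochberg adjustment over 19672 genes and a threshold of 0.05 (called, below). Of the 87 members 26 were called, 10 higher and 16 lower at day 11, which is 29.9% of the set beside 21.1% of all genes (7.85% higher and 13.3% lower). With no scaling beyond total counts the split was 7 higher and 19 lower, a setting that moves the median log2 change of all genes to -0.144 against 0.0387. The libraries of the 2 stages did not overlap for 16 members that were higher and 24 that were lower, beside 14.5% and 23.4% of all genes. Among the 42 members present in all 10 libraries, 6 were called, which is 14.3% beside 21.1% of all genes. Of these 6, 2 were higher and 4 lower, and the median log2 change of the 42 was 0.15. Without hPSC replicate 2 the number called was 12, and without hPSC replicate 1 it was 15. In bulk samples, fewer cells of a type and less RNA per cell cannot be told apart.

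LINC00261, known in human cells as a definitive endoderm RNA that lies beside FOXA2, the forkhead factor of floor plate and endoderm, had the largest positive fitted difference of the 87. Its levels were 239.6 and 162.4 CPM at 0.7 µM, 69.5 and 80.9 CPM at 3 µM, 67.0 and 85.8 CPM at 5 µM and 104.1 and 172.5 CPM at 7.5 µM, against 0.248 and 0.0798 CPM in hPSC. All 8 day 11 libraries lay far above both hPSC libraries. The fitted log2 difference was 9.53 with a standard error of 0.64; since the gene entered the set through its day 11 libraries, this is given without a test. FOXA2 itself stood at 211.2 and 72.5 CPM at 0.7 µM, 89.5 and 52.4 CPM at 3 µM, 107.2 and 62.8 CPM at 5 µM and 99.7 and 83.5 CPM at 7.5 µM, against 0.557 and 0.12 CPM in hPSC. FOXA2 was called in the same comparison, 8.29 log2 units higher at day 11 (SE 1.01, adjusted p = 0.00134). Of the endoderm markers, FOXA3 had 1.6 to 6.72 CPM at day 11 and 17.1 to 18.7 CPM in hPSC. GATA6 had 0 to 0.475 CPM at day 11 and 0.0619 to 0.0798 CPM in hPSC, GATA4 stayed at or under 0.0594 CPM at day 11 and 0.16 CPM in hPSC, and SOX17 was at or near 0 in all 14 libraries.

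**Figure D2:**
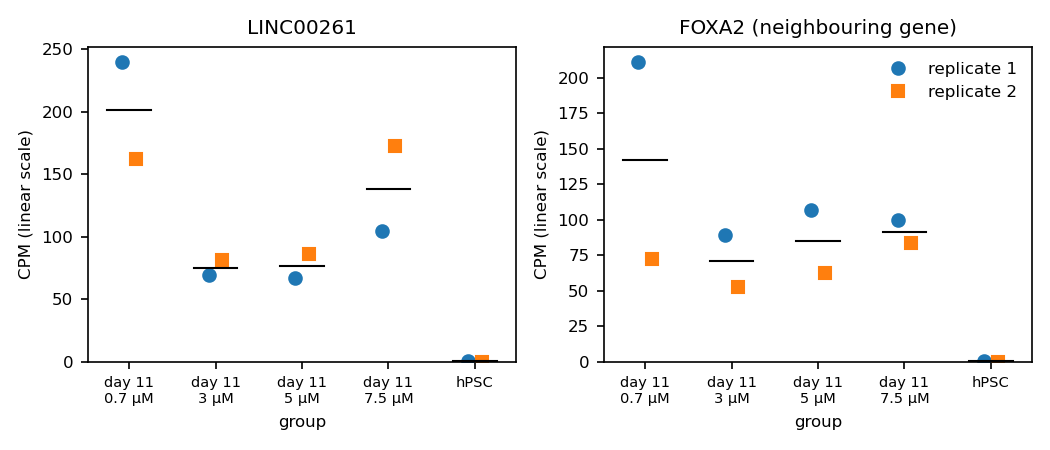
CPM of LINC00261 (left) and FOXA2 (right) on linear axes by group, with circles for replicate 1, squares for replicate 2 and lines for the mean of 2 libraries. LINC00261 lies at 67.0 to 239.6 CPM in the day 11 libraries and at 0.248 and 0.0798 CPM in hPSC; at every concentration FOXA2 was higher in replicate 1.

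Within day 11, LINC00261 was highest in the 0.7 µM cultures and lowest at 3 and 5 µM. In CPM its libraries at 3 and 5 µM lay below both 0.7 µM libraries, while those at 7.5 µM overlapped them. The TMM factors of replicate 2 were 1.14 at 7.5 µM and 1 at 0.7 µM. Scaled by TMM factors, both 7.5 µM libraries also lay below both 0.7 µM libraries. With a term for replicate number (the block) the log2 change was -1.23 (SE 0.3, adjusted p = 0.292) at 3 µM, -1.33 (SE 0.31, adjusted p = 0.0792) at 5 µM and -0.72 (SE 0.3, adjusted p = 0.152) at 7.5 µM, each against 0.7 µM, and none passed. The 3 µM and 5 µM differences did pass without a filter on low counts (adjusted p = 0.0063 and 0.000852), with DESeq2 (0.0237 and 0.00267) and without either 7.5 µM library (0.0202 and 0.022 at 3 µM, 0.00351 and 0.00385 at 5 µM). The 7.5 µM difference passed without 7.5 µM replicate 2, at -1.25 (adjusted p = 0.00518). These comparisons share the 0.7 µM libraries.

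Of the other members that reached 1 CPM in day 11 libraries alone, 2 are described. LINC00936 (ATP2B1-AS1), which overlaps the calcium pump gene ATP2B1 on the other strand, varied little between day 11 libraries, at 5.4 to 7.07 CPM against 0.496 to 0.559 CPM in hPSC, a log2 difference of 3.73 (SE 0.37). ATP2B1 was 1.36 log2 units higher (SE 0.9, adjusted p = 0.319) and was not called. LINC00403 (SOX1-OT), which overlaps the neural progenitor gene SOX1, had 1.66 to 5.34 CPM at day 11 and 0.712 and 0.0798 CPM in hPSC, a log2 difference of 3.06 (SE 0.92). Both entered the set through their day 11 libraries, so these differences are given without a test.

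Members that were high in hPSC included the set's most stage-bound RNAs. LINC00678, listed among pluripotency-linked lincRNAs, had 108.7 and 162.2 CPM in hPSC, 7575 counts in all, and 2 counts over the 8 day 11 libraries. The ratio of hPSC over day 11, scaled by library size, was 1.59e+04 with an exact 95% interval of 4.41e+03 to 1.31e+05 that covers counting error only. LINC00458, also on the pluripotency list, had 0 to 0.175 CPM at day 11 and 3.69 and 5.79 CPM in hPSC (log2 -7.58, SE 0.7). Of the 3 lincRNAs on that list 2 had an entry under that symbol. Both were members, and both were lower at day 11. Both entered the set through their hPSC libraries, so these differences, the ratio and its interval are descriptions, given without a test.

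LINC00599, the host of the microRNA miR-124-1, stood at 0.0594 to 0.425 CPM at day 11 and at 84.6 and 58.6 CPM in hPSC, a log2 difference of -8.36 (SE 0.43). miR-124 is best known as a neuronal microRNA, yet this host transcript was a hPSC-high member; the mature microRNA was not measured. LINC00966, host of miR-124-2, was present at both stages, with 1.3 to 4.4 CPM at day 11 and 3.47 and 1.4 CPM in hPSC. LINC00371 (C13orf42), LINC00545 and LINC00605 also reached 1 CPM only in hPSC: LINC00371 had 0 to 0.409 CPM at day 11 and 11.6 and 11.2 CPM in hPSC, LINC00545 had 0.0292 to 0.244 CPM and 3.04 and 4.79 CPM, and LINC00605 had 0 to 0.0974 CPM and 1.92 and 2.35 CPM. Their log2 differences were -6.13 (SE 0.73), -4.90 (SE 0.57) and -6.29 (SE 0.9). For all of these the 2 stages were separated by a wide gap. LINC00899, outside the naming rule, had 3 counts over the day 11 libraries and 85 in hPSC (ratio of hPSC over day 11 119, 95% interval 39.4 to 589, counting error only). Apart from LINC00966, the members of this paragraph entered the set through their hPSC libraries. Their differences are given without a test.

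**Figure D3:**
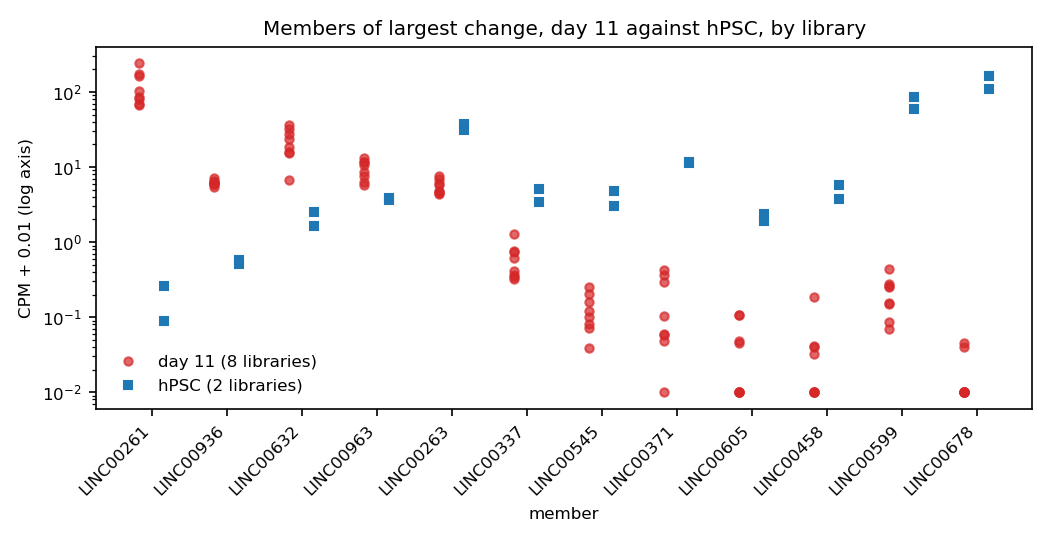
CPM + 0.01 on a log axis for the 12 members of largest change that the naming rule took in day 11 against hPSC, with red circles for the 8 day 11 libraries and blue squares for the 2 hPSC libraries. LINC00261, LINC00936, LINC00632 and LINC00963 lie higher at day 11 and the other 8 lie lower, with no overlap of libraries.

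Among members present at 1 CPM or more in all 10 libraries, LINC00632 and LINC00963 rose and LINC00086, LINC00263, LINC00617 and LINC00649 fell. LINC00632, the locus that gives rise to the circular RNA CDR1as and overlaps CDR1 on the other strand, had 6.62 to 36.5 CPM at day 11 and 2.54 and 1.64 CPM in hPSC (log2 3.46, SE 0.46, adjusted p = 0.00177). LINC00963 had 5.76 to 13 CPM at day 11 and 3.84 and 3.63 CPM in hPSC (log2 1.47, SE 0.35, adjusted p = 0.0199). LINC00263 (OLMALINC), an RNA of oligodendrocyte maturation next to the desaturase gene SCD, had 4.37 to 7.69 CPM at day 11 and 37.8 and 30.8 CPM in hPSC (log2 -2.45, SE 0.25, adjusted p = 0.000542). LINC00617 (TUNAR), needed in mouse embryonic stem cells for pluripotency and neural differentiation, had 8.92 to 22.5 CPM at day 11 and 43.8 and 57.1 CPM in hPSC (log2 -1.72, SE 0.26, adjusted p = 0.00279). LINC00086 (SMIM10L2A), now a coding gene, had 2.55 to 12.1 CPM at day 11 and 45.3 and 48.0 CPM in hPSC (log2 -2.43, SE 0.35, adjusted p = 0.00276). LINC00649 had 5.1 to 19.8 CPM at day 11 and 30.5 and 31.3 CPM in hPSC (log2 -1.71, SE 0.26, adjusted p = 0.00332). The call of LINC00963 was lost without hPSC replicate 1 or 2 (adjusted p = 0.167 and 0.184), and those of LINC00617 and LINC00649 without hPSC replicate 2 (0.0655 and 0.059). LINC00337 (ICMT-DT), which starts beside the gene of the methyltransferase ICMT and runs the other way, had 0.317 to 1.27 CPM at day 11 and 3.38 and 5.03 CPM in hPSC (log2 -2.65, SE 0.56). It is given without a test, since it met the cutoff through the hPSC libraries and 1 day 11 library. In GENCODE 29 LINC00337 also has an exon overlapping ICMT on the other strand.

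Of the 8 neural lincRNAs and microRNA hosts listed, 6 had an entry under that symbol and 3 were members. LINC00632 was higher, and LINC00599 and LINC00617 were lower at day 11. Of the 6 listed genes now known to code for small proteins, 4 had such an entry, 2 were members and neither member was called. LINC00493 (SMIM26), which encodes a mitochondrial microprotein, had 28.4 to 71.8 CPM at day 11 and 31.4 and 35.0 CPM in hPSC. LINC00116 (MTLN), which encodes mitoregulin of the inner mitochondrial membrane, had 0.827 to 6.14 CPM at day 11 and 2.48 and 2.39 CPM in hPSC. Both were higher in replicate 1 than in replicate 2 at every day 11 concentration. Of 7 widely studied lincRNAs, 6 had such an entry and 5 were members (LINC00657, LINC00152, LINC00467, LINC00511 and LINC00665). None of the 5 was called between the stages. LINC00467 came nearest, with 8.13 to 24.3 CPM at day 11 and 3.72 and 5.47 CPM in hPSC (adjusted p = 0.0513).

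The members with the smallest ratio of highest to lowest CPM over the 10 libraries were LINC00662, LINC00526, LINC00663, LINC00665 and LINC00984. LINC00662 had 12.5 to 15.6 CPM at day 11 and 16.1 and 14.5 CPM in hPSC, so that its 10 libraries differed by little. LINC00665 had 17.9 to 34.2 CPM at day 11 and 35.5 and 41.6 CPM in hPSC. Among the other members of high mean CPM, LINC00641 had 9.16 to 69.8 CPM at day 11 and 32.8 and 37.7 CPM in hPSC, LINC00667 had 14.8 to 50.1 CPM and 37.3 and 41.4 CPM, and LINC00847 had 11.4 to 36.9 CPM and 12.8 and 14.7 CPM.

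Day 11 libraries of the same replicate number resembled each other across members. Of the 79 members tested at day 11, 29 (36.7%) were higher in replicate 2 at all 4 concentrations and 17 (21.5%) higher in replicate 1, beside 38.5% and 26.2% of all 18709 genes tested. LINC00657 shows it: it had 252.4, 190.8, 179.7 and 326.7 CPM in replicate 1 from the lowest to the highest concentration, and 593.4, 563.8, 501.3 and 487.1 CPM in replicate 2. The dose comparisons were made in 2 forms, 1 of them with a term for replicate number (the block). The form without the block was set as the main one, since the study's methods name no block. The blocked form was the second, chosen because earlier results of these data showed that same-numbered libraries deviate together. Changes are nonetheless worded from the blocked form.

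The dose question is which members follow CHIR at day 11. At 7.5 against 0.7 µM, 14 of 79 tested members were called with the block, 5 higher and 9 lower, 17.7% beside 10.5% of all genes (5.64% higher and 4.87% lower). Without the block edgeR called 0 members and 0% of all genes; 11 members had an unadjusted p under 0.05, and DESeq2 without the block called 5. With no scaling beyond total counts the blocked split was 6 higher and 7 lower, a setting that puts the median log2 change of all genes at 0.243, against 0.0701 with TMM scaling. The libraries did not overlap for 27 members that were higher and 10 that were lower at 7.5 µM, beside 26.1% and 12.7% of all genes. The 5 WNT target genes SP5, AXIN2, LEF1, NKD1 and NOTUM summed to 1069 and 1333 CPM at 7.5 µM and to 129.9 and 234 CPM at 0.7 µM.

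LINC00890 (SERTM2), today a small coding gene beside the neuronal migration gene DCX, rose with the block. It had 0.487 and 1.56 CPM at 0.7 µM, 1.13 and 2.18 CPM at 3 µM, 1.93 and 5.02 CPM at 5 µM and 3.33 and 16.3 CPM at 7.5 µM. Each replicate climbed at every step, and replicate 2 ran above replicate 1 throughout. The log2 change at 7.5 against 0.7 µM was 2.93 (SE 0.47, adjusted p = 0.00516). LINC00883 (DUBR), known in mouse as a regulator of muscle differentiation, had 1.51 and 4.49 CPM at 0.7 µM, 2.4 and 6.52 CPM at 3 µM, 3.61 and 9.73 CPM at 5 µM and 11.1 and 17.1 CPM at 7.5 µM (log2 2.20, SE 0.35, adjusted p = 0.00509). It too was higher in replicate 2 at each concentration.

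LINC00863 and LINC00669 rose at 7.5 µM with no such steps before it. LINC00863 had 1.31 and 0.827 CPM at 0.7 µM, 0.563 and 0.669 CPM at 3 µM, 1.01 and 1.31 CPM at 5 µM and 3.77 and 3.24 CPM at 7.5 µM (log2 1.57, SE 0.41, adjusted p = 0.0377). LINC00669 (MIR924HG) had 3.7 and 3.02 CPM at 0.7 µM, 2.14 and 2.22 CPM at 3 µM, 4.09 and 3.13 CPM at 5 µM and 11.6 and 9.76 CPM at 7.5 µM (log2 1.5, SE 0.33, adjusted p = 0.0193). Its hPSC libraries had 8.67 and 7.18 CPM. LINC00886, also called higher, lay at or under 1.06 CPM in every day 11 library and stands in the set through 1 hPSC and 1 of the 7.5 µM libraries.

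Of the members that fell, LINC00632 and LINC00617 did so step by step in CPM. LINC00632 had 32.1 and 36.5 CPM at 0.7 µM, 27.5 and 23.9 CPM at 3 µM, 15.8 and 18.7 CPM at 5 µM and 6.62 and 15.1 CPM at 7.5 µM (log2 -1.86, SE 0.37, adjusted p = 0.0135). LINC00617 had 22.5 and 19.7 CPM at 0.7 µM, 14.8 and 12.9 CPM at 3 µM, 12.0 and 11.2 CPM at 5 µM and 9.62 and 8.92 CPM at 7.5 µM (log2 -1.35, SE 0.27, adjusted p = 0.0133). In CPM, which leave out TMM scaling, both declined at each step in both replicates. Replicate 1 had TMM factors of 0.98 at 0.7 µM and 0.759 at 3 µM. Scaled by these, LINC00632 rose at the first step in replicate 1, and LINC00617 still declined.

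LINC00511, a lincRNA studied in cancer that lies between SLC39A11 and SOX9, had 3.65 and 2.12 CPM at 0.7 µM, 1.28 and 0.986 CPM at 3 µM, 0.722 and 0.847 CPM at 5 µM and 0.95 and 0.592 CPM at 7.5 µM (log2 -2.05, SE 0.43, adjusted p = 0.0154). LINC00086 had 11.6 and 12.1 CPM at 0.7 µM and 2.55 and 6.52 CPM at 7.5 µM (log2 -1.70, SE 0.37, adjusted p = 0.0183), and LINC00173 had 7.94 and 7.64 CPM at 0.7 µM and 2.47 and 4.18 CPM at 7.5 µM (log2 -1.43, SE 0.34, adjusted p = 0.0242). The other members called lower were LINC00092, LINC00847, LINC00894 and LINC00957, with log2 changes of -0.94 to -3.60. LINC00092 and LINC00957 reached 1 CPM at 0.7, 3 and 5 µM only. They thus entered the set through cultures where they were high, and their calls are descriptions. LINC00957 had 0.0297 and 0.125 CPM at 7.5 µM. LINC00883 and LINC00890 stayed called whichever day 11 library was left out. Each of the other 12 lost the call without at least 1 library: without 0.7 µM replicate 1 the number called was 4, and without 0.7 µM replicate 2 it was 3.

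**Figure D4:**
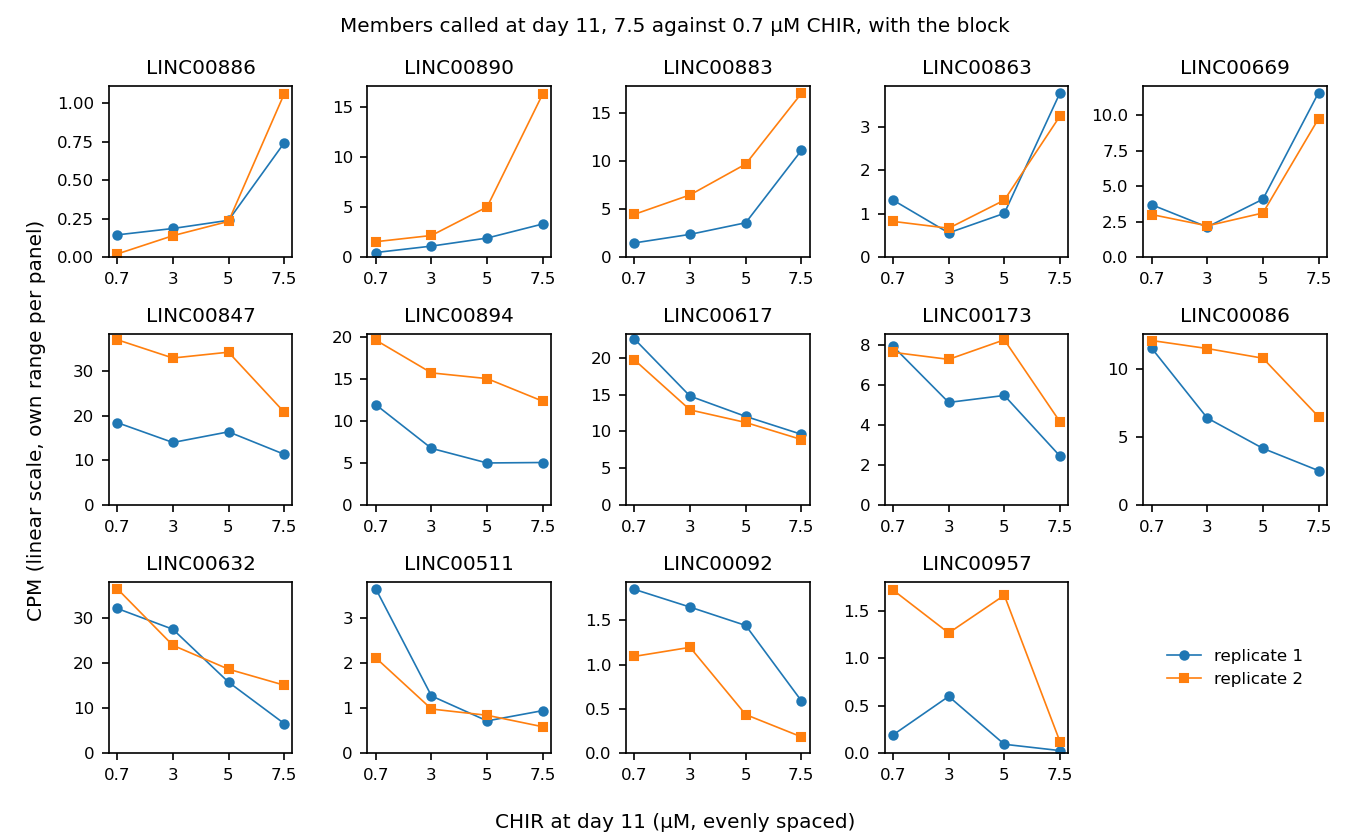
CPM at day 11 by the CHIR concentration that ran from day 4 (4 concentrations in µM, evenly spaced). Shown are the 14 members called at 7.5 against 0.7 µM with the block. Each has 1 panel with its own linear axis from 0. Circles are replicate 1 and squares replicate 2. The 5 members in the first row end higher at 7.5 µM, for example LINC00883 at 11.1 and 17.1 CPM, and the other 9 end lower.

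At 5 against 0.7 µM no member was called with the block, beside 1.13% of all genes, although 10 of 79 had an unadjusted p under 0.05 and DESeq2 called 4. At 3 against 0.7 µM none was called either, beside 0.0214% of all genes, with 6 members at an unadjusted p under 0.05 and 1 called by DESeq2. Without the block edgeR called 0 members in both comparisons, with 3 and 1 at an unadjusted p under 0.05 and 0 by DESeq2. The slope over the log2 concentration used all 4 concentrations and called 2 members with the block, beside 1.19% of all genes (0.722% higher and 0.465% lower): LINC00890 gained 0.82 log2 units per doubling of CHIR (SE 0.15, adjusted p = 0.0417) and LINC00511 had a slope of -0.60 (SE 0.11, adjusted p = 0.036). Neither slope was called with no scaling beyond total counts (adjusted p = 0.051 for LINC00890 and 0.0575 for LINC00511). Without the block 0 members had a called slope, beside 0.134% of all genes, with 7 at an unadjusted p under 0.05 and 1 called by DESeq2. Leaving out either 0.7 µM library, either 5 µM library or 7.5 µM replicate 2 ended both calls; without 3 µM replicate 2 LINC00890 alone and without 7.5 µM replicate 1 LINC00511 alone was called.

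Coding genes beside the members were read in the same fits, with order and distance from the RefSeq table. Between day 11 and hPSC, 67 members had a tested nearest coding gene and for 17 that gene was called, beside 21.1% of all genes. For 10 of the 22 called members among them the nearest gene was called, in the same direction for 9. The share for neighbouring gene pairs in general was not computed. Of all called members, 10 reached 1 CPM in hPSC alone and 7 in day 11 libraries alone, so how they were chosen bears on their direction. These counts are descriptions, and the pair of opposite direction is not among those named next. Besides FOXA2 next to LINC00261, MEDAG next to LINC00545 fell (log2 -6.19, adjusted p = 0.000202), as did TNFAIP2 next to LINC00605 (-2.89, 0.0024), FAM124A next to LINC00371 (-2.22, 0.0015), SCD next to LINC00263 (-1.31, 0.0119) and ICMT next to LINC00337 (-0.89, 0.0225). In GENCODE 29 LINC00337 has an exon overlapping ICMT on the other strand, so reads of that pair, which is counted above, are uncertain. BDNF, the neurotrophin gene next to LINC00678, was not called (-1.48, adjusted p = 0.135). At 7.5 against 0.7 µM the nearest gene was called for 4 of 56 members, beside 10.5% of all genes, and for 1 of 12 called members: DCX, next to LINC00890, fell (log2 -1.36, SE 0.25, adjusted p = 0.00858) where LINC00890 rose. The coding gene nearest to LINC00511, SLC39A11 at 5.48 kb, was not called. SOX9, 471.6 kb away on the other side, was lower at 7.5 µM (log2 -1.55, SE 0.31, adjusted p = 0.0139). Genes on the farther side of members were not counted.

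The day 16 and day 30 libraries played no part in the choice of members. Their tables stood apart from the earlier ones in ways that bear on every level below. MT-ND6, the mitochondrial coding gene on the opposite strand to the other 12, took 36.9% to 61.4% of the counts on the 13 mitochondrial coding genes there, and 0.0863% to 0.437% in the hPSC and day 11 tables. STARD4-AS1, an antisense RNA, had 1.54e+04 to 1.66e+04 CPM there and under 0.967 CPM in the earlier tables, GAPDH had 71.0 to 289.9 CPM and 2304 to 9966 CPM, and the single-exon gene SOX2 was listed at 0 in all 4. Members show the same break: LINC00094, which overlaps BRD3 on the other strand, had 518.7 to 676.8 CPM at day 16 and day 30 and 11.0 to 31.7 CPM before. LINC00649, which overlaps the ATP synthase gene ATP5PO on the other strand, had 193.1 to 257.1 CPM and 5.1 to 31.3 CPM, while ATP5PO (ATP5O in the files) had 0.53 to 5.68 CPM and 172 to 400.1 CPM. In these 4 libraries 7 members lay above all 10 earlier libraries and 25 lay below all of them, beside 9.09% above and 55.8% below among the 16759 genes that met the same cutoff and had an entry in both kinds of table. Of the 7, 4 have an exon overlap with a gene on the other strand, as do 26 of the 87 members. No test was made across the 2 kinds of table, and how strand entered the later counts was not tested.

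Between day 30 and day 16, 37 members could be tested and 2 were called, beside 11% of all 15435 genes (6.82% higher and 4.2% lower). LINC00669 had 13.4 and 17.2 CPM at day 30 and 3.63 and 1.85 CPM at day 16 (log2 2.66, SE 0.74, adjusted p = 0.0144). LINC00340 (CASC15), a neuroblastoma susceptibility locus, had 11.1 and 14.1 CPM at day 30 and 109.1 and 35.9 CPM at day 16 (log2 -2.27, SE 0.59, adjusted p = 0.00862). The groups did not overlap for either, beside 23.6% of all genes that were higher without overlap and 30.1% lower. LINC00669 overlaps AC011139.1 and LINC00340 overlaps NBAT1 on the other strand, so which strand the later counts of these 2 came from cannot be told apart. The median log2 change of the tested members was -0.0792, beside -0.185 for all genes, and it was 0.221 without day 16 replicate 1. Without either day 30 library no member was called, and without day 16 replicate 1 and 2 the counts were 9 and 13. LINC00669 lost its call with the replicate block (adjusted p = 0.0589) and with no scaling beyond total counts (0.0899).

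LINC00261 was present in the later libraries, with 19.3 and 40.6 CPM at day 30 and 85.5 and 48.1 CPM at day 16. The day 30 libraries lay below those of day 16, but the log2 change of -0.98 (SE 0.54, adjusted p = 0.286) did not pass; without day 16 replicate 2 it was -1.06 (adjusted p = 0.0155). LINC00966, the miR-124-2 host, had 19.4 and 35.7 CPM at day 30 and 63.1 and 7.4 CPM at day 16, so the 2 day 16 libraries differed more from each other than the groups did. The neuron marker STMN2 split day 16 in the same manner, with 136.9 and 134.9 CPM at day 30 and 205.5 and 11.3 CPM at day 16. LINC00678 and LINC00458, the hPSC-high members, had at most 0.732 and 0.177 CPM in any later library. The break described above, with SOX2 at 0, covers these values too, so absence of the 2 RNAs cannot be read from them.

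**Figure D5:**
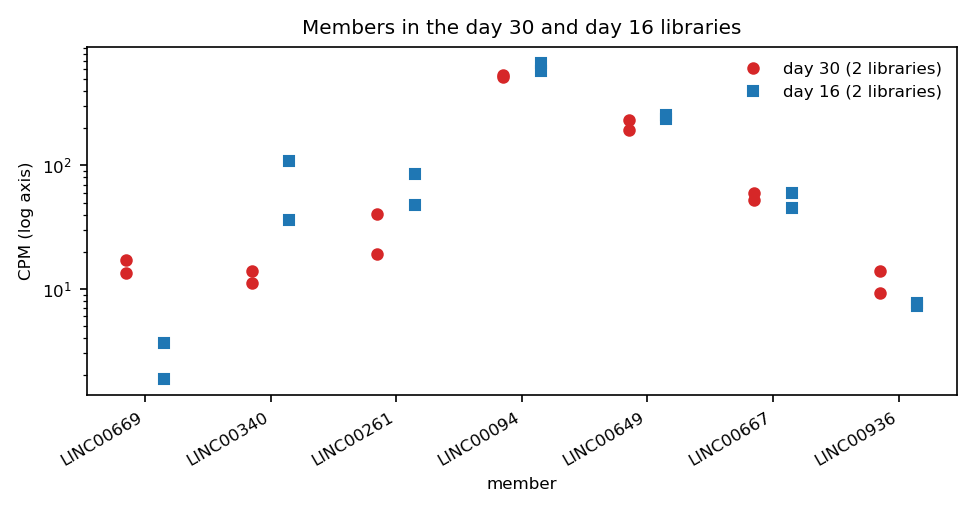
CPM on a log axis of 7 members in the day 30 (red circles) and day 16 (blue squares) libraries, 2 each. The members called were LINC00669, higher at day 30 at 13.4 and 17.2 CPM, and LINC00340, lower at 11.1 and 14.1 CPM. The groups also did not overlap for LINC00261, LINC00094, LINC00649 and LINC00936, which were not called. They overlapped for LINC00667.

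The cutoff separated near neighbours. By their second highest CPM, the members just inside were LINC00654 at 1.03, LINC00937 at 1.04, LINC00634 and LINC00886 at 1.06 and LINC00882 at 1.1 CPM, and the genes just outside were LINC00622 at 0.991, LINC00908 at 0.898, LINC00562 at 0.861, LINC00240 at 0.842 and LINC00987 at 0.805 CPM.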

How the data were processed

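RNA-seq of total RNA was deposited as raw read counts per gene for 14 libraries; the authors' values are whole counts, not normalized. Per the submitters' processing notes reads were handled on hg19 with STAR (2.4.2a), HTSeq (0.5.3), featureCounts (1.4.2) and DESeq2 (1.12.4), in roles not stated. The sources used here do not give the kit, its strand or the counting settings. Entries that name no gene (37.41% to 44.33% of counts before day 16) stayed out of library sizes and tests.

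CPM are, as computed here, counts over the sum of gene entries. Tests used edgeR 4.0.16 (limma 3.58.1, R 4.3.3, with TMM, filterByExpr and robust quasi-likelihood) with Benjamini-Hochberg adjustment over all genes. They were also run on simulated counts with a single fixed spread and no replicate effect, which cannot check the block. DESeq2 1.42.0 was an alternative. Same-numbered day 11 libraries deviated together (correlation 0.657 to 0.871 over the 6 pairs of concentrations, 18709 genes; the sample descriptions also share a code by replicate number), so that number pairs them. It was -0.115 to -0.177 between hPSC and day 11 groups, which are not paired.

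Named members were up to 8 called in each direction with the largest fold, 2 CPM and no overlap of libraries (3 in lesser dose comparisons), members of 4 short lists, LINC00261, the 10 of highest mean CPM, the 5 steadiest and 5 on each side of the cutoff. Members and lists were chosen with earlier results of these data known. Bounds and ratios cover counting error only. Promoter and microRNA sequences are RefSeq's, GRCh38.p14; exon lengths and overlaps are from GENCODE 29. Some marker genes, and the sums that hold them, are not reported here.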

Additional observations from a re-analysis of the deposited data

How the results depend on the processing

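No called member, nor LINC00261 or LINC00403, changed direction under the settings tried (other scaling, no filter, DESeq2, blocks, 1 library left out); neighbouring genes and other members were not followed singly, and the members' median at day 30 against day 16 did turn without day 16 replicate 1. The set itself held 113 and 62 genes at 0.5 and 2 CPM, and 95 and 61 with 1 and 4 libraries required. Day 11 against hPSC called 43 members with the replicate block, 51 with the block within day 11, and 12 to 28 with 1 library left out. At 7.5 against 0.7 µM the count was 14 with the block and 0 without it (DESeq2 without the block 5; 1 library left out 3 to 20 with the block and 0 to 0 without). At 5 against 0.7 µM the block gave 0, but 4 with no filter, 4 with DESeq2 and 0 to 5 with 1 library left out; at 3 against 0.7 µM it gave 0, but 1 with no filter, 1 with DESeq2 and 0 to 1. The slope gave 2 with the block, 0 without it or with no scaling, 7 with DESeq2 (1 with DESeq2 and no block) and 0 to 2 with 1 library left out. Day 30 against day 16 gave 2, 1 with no scaling, 1 with the replicate block and 0 to 13 with 1 library left out; a crossed pairing, chosen after the same-numbered libraries were seen to correlate at -0.222, gave 2. The cause of these shifts was not tested, beyond that fewer libraries enter the leave-outs. The later libraries' depth of 5.41 to 6.34 M limits members of low level.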
